A study of Mus musculus with 13 samples.

Results

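Liver mesothelial and portal fibroblast markers were examined as a group of 8 genes, each read by 1 probe set, out of 19537 genes with a single symbol and 25194 probe sets on the array. Mesothelial markers were Msln, Upk3b, Lrrn4 and Gpm6a, and portal or adventitial fibroblast markers were Thy1, Dpt, Pi16 and Cd34. The genes were chosen by symbol. The 13 arrays held RNA of liver cells from untreated C57BL/6 mice aged 6 to 10 weeks, with no transgene or other genotype in the labels. Hepatocytes, Kupffer cells (the liver macrophages) and liver sinusoidal endothelial cells (LSEC) were used freshly isolated, with 3 arrays each. Hepatic stellate cells (HSC), the retinoid-storing pericytes of the sinusoid, were measured only after culture in DMEM with 10% FBS, with 2 arrays at 1 day, 1 at 7 days and 1 at 14 days. No array of mesothelial cells, of portal fibroblasts or of uncultured HSC was used, so the markers had no positive control here and the HSC differed from the other cells in culture as well as in type.

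The mesothelium is the flat epithelium that covers the liver capsule, and portal fibroblasts lie in the connective tissue around the portal tracts. Both are mesenchymal neighbours of HSC, both can become matrix-producing myofibroblasts, and either can be carried into a liver cell preparation. Some of the markers have other sources in the body: Thy1 is a T cell and neuronal surface protein, Cd34 marks endothelium and blood progenitors, and Gpm6a is abundant in neurons.

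The labelled cells carried their defining markers. All 11 measured hepatocyte markers and all 12 Kupffer cell markers were higher in their own population than in each of the other 3. So were 12 of 14 sinusoidal endothelial markers in LSEC and 11 of 19 stellate cell markers in 1-day HSC. The shares of all genes were 6.8%, 6.53%, 2.35% and 2.59%, in the same order. Testing required values above the median of all values on at least 2 arrays. Some hepatocyte, Kupffer cell and stellate cell markers met this only through their own population, among them Des, Bmp5, Hhip and Rgs5. These counts are therefore descriptions and not support. Markers of other cells were also read on the 1-day HSC arrays. There 8 of 11 hepatocyte markers and 13 of 14 sinusoidal endothelial markers lay above the median of all values (224.5) on both. So did 7 of 12 Kupffer cell markers. On all Kupffer cell arrays 10 of 14 sinusoidal endothelial markers did, and on all hepatocyte arrays 8 did. Of the hepatocyte markers, 2 of 11 did on all Kupffer cell arrays and 1 on all LSEC arrays. Summed over the list, hepatocyte markers read 11359 to 20114 on the 1-day HSC arrays, 1315 at day 7 and 1302 at day 14. Sinusoidal endothelial markers read 15409 to 16121 at day 1, 3210 at day 7 and 3639 at day 14. They read 15850 to 18634 on the Kupffer cell arrays, where hepatocyte markers read 2486 to 5955. The endothelial marker Stab2 read 7490, 6359 and 4177 in LSEC replicates 1 to 3. Across probe sets on the log2 scale, r between replicate arrays was 0.9859 to 0.9957. Probe sets are not independent replicates, and the number of arrays limits the precision.

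Among the 8 genes, 3 patterns stood out: Thy1 was high in long-cultured HSC, Dpt was high in 1-day HSC, and Cd34 was high in LSEC. Upk3b and Lrrn4 were highest on the 14-day array at lower levels, and Gpm6a was high both there and in LSEC. Msln and Pi16 stayed below the median of all values on each of the 13 arrays. These 2 genes were therefore not tested, since genes had to exceed that median on at least 2 arrays of a fit. In the comparison of the 4 populations 3 of the 8 genes were tested (Gpm6a, Dpt and Cd34), and in the comparisons with longer culture 6 were. Upk3b and Lrrn4 passed the filter only through the day 7 and day 14 arrays, and Dpt only through the day 1 HSC arrays. Among the 4 populations Gpm6a passed it only through LSEC replicates 1 and 2. Thy1 passed the filter only through HSC arrays, those of days 7 and 14 and replicate 1 of day 1. The calls and counts of Upk3b, Lrrn4, Dpt, Gpm6a and Thy1 are therefore descriptions and not support. Because the arrays read bulk RNA, fewer cells of a type and less RNA per cell cannot be told apart.

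**Figure D1:**
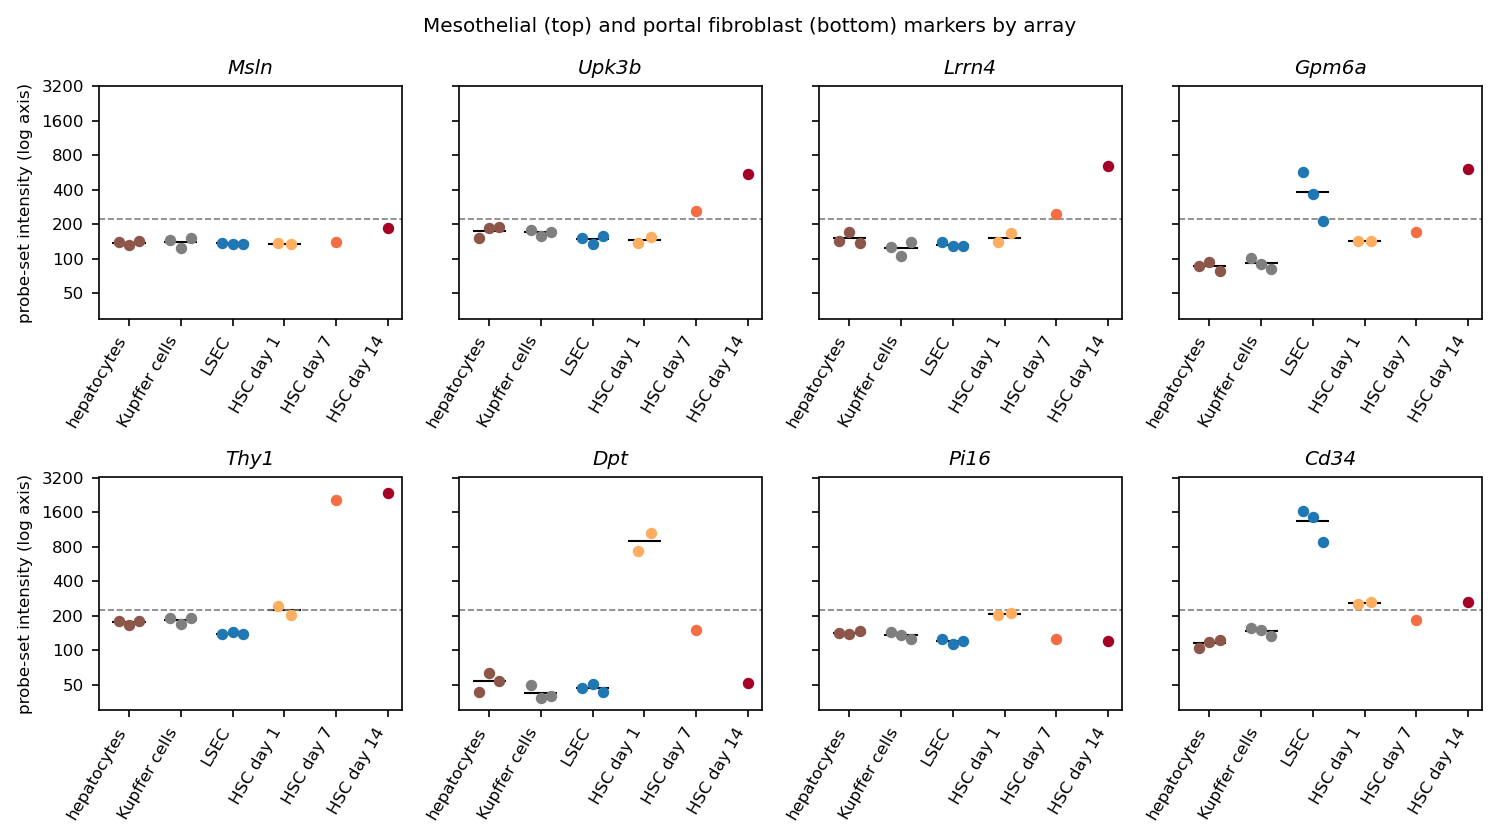
Probe-set intensity on a log axis for each of the 8 markers, with 1 point per array, a black line at the mean of groups with more than 1 array, and a dashed line at the median of all values (224.5). Thy1 reads 2026 and 2352 on the day 7 and day 14 HSC arrays, Dpt 727.9 and 1058 on the day 1 arrays, and Cd34 877.2 to 1648 on the LSEC arrays.

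Upk3b encodes a uroplakin, a membrane protein of urothelium and mesothelium. It read 150.8, 186.5 and 189.9 in hepatocytes, 180.1, 159.8 and 170.6 in Kupffer cells, 152.4, 135 and 159.3 in LSEC, and 137.1 and 154.4 in 1-day HSC. It then read 262.8 at day 7 and 548.3 at day 14. Both long-culture arrays lay above all 11 others. Hepatocytes overlapped each other group, while Kupffer cells lay just above LSEC and 1-day HSC. Longer culture, with the day 7 and day 14 arrays merged, was set against 1-day HSC in a limma fit over 12368 genes. A gene passed when its Benjamini-Hochberg adjusted p was below 0.05 and its difference was at least 1 on the log2(intensity + 83) scale. Upk3b passed with a log2 difference of 1.03 (SE 0.2, adjusted p = 0.0012). Without HSC day 1 replicate 1 the difference was 0.98 (adjusted p = 0.011), below the minimum.

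Lrrn4 encodes a neuronal leucine-rich repeat membrane protein that is also expressed by mesothelium. It read 138.6 to 170.8 in hepatocytes, 107 to 141.2 in Kupffer cells, 128.4 to 139.8 in LSEC and 140 and 166.8 in 1-day HSC. It read 247.6 at day 7 and 642.8 at day 14, again above all other arrays. The other groups overlapped, apart from LSEC just below 1-day HSC. Lrrn4 passed against day 1 at 1.05 (SE 0.25, adjusted p = 0.0043). Leaving out HSC day 1 replicate 1 gave 0.97 (adjusted p = 0.032), below the minimum. In a fit on the 4 HSC arrays alone the difference of 1.05 did not pass (adjusted p = 0.078). With the day 7 array alone set against day 1, the differences were 0.60 for Upk3b and 0.49 for Lrrn4, below the minimum.

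Gpm6a, a membrane glycoprotein of the proteolipid family, had its own order. It read 569.2, 367.1 and 212 in LSEC replicates 1 to 3, 142 and 142.4 in 1-day HSC, 172 at day 7 and 608.6 at day 14. Hepatocytes (79.13 to 93.66) and Kupffer cells (81.73 to 102.5) overlapped and lay below all other arrays. The day 14 array exceeded every LSEC array, and every LSEC array exceeded day 7 and day 1. Day 7 and 14 together differed from day 1 by 0.90 (SE 0.378, adjusted p = 0.072) and did not pass. The single arrays differed: the day 14 array alone was 1.62 above day 1 and the day 7 array alone 0.18. Such a difference rests on 1 long-culture array, assumed to vary like the other groups.

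Msln encodes mesothelin, the surface glycoprotein that names the lineage. It read 125.4 to 153.1 on the 9 arrays of fresh cells, 137.6 and 134.1 in 1-day HSC, 139.2 at day 7 and 184.1 at day 14. Only the day 14 value lay outside the range of the fresh cells. With no filter the log2 difference of long culture from day 1 was 0.15 (adjusted p = 0.22).

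The 3 mesothelial markers with their highest value on the day 14 array and a level above the median there are shown by the 250 bases upstream of a RefSeq start site (GRCm38.p6), written 5′ to 3′ on the gene's strand. Capitals mark matches to GGAATG or its reverse complement CATTCC, letters that TEAD factors of the YAP pathway recognise. The windows are Upk3b at chr5:136038246-136038495 (plus strand), Lrrn4 at chr2:132880863-132881112 (minus strand) and the first of 2 Gpm6a windows at chr8:54779184-54779433 (plus strand).
Upk3b: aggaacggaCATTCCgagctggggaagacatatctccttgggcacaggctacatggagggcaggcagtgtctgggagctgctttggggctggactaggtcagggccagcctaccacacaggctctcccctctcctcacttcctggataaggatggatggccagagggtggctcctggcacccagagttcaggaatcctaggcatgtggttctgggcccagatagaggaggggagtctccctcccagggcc
Lrrn4: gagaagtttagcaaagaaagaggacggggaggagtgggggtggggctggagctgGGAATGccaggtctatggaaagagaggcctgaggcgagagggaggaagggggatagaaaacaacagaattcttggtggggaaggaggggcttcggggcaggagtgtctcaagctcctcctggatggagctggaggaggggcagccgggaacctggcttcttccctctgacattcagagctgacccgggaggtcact
Gpm6a: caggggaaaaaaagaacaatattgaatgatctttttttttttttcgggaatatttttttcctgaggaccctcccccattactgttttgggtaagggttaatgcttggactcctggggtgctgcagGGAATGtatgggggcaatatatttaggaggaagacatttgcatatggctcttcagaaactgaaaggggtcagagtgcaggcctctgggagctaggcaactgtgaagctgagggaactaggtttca

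Each of these windows held 1 match, beginning 241 bases upstream of the start for Upk3b, 196 for Lrrn4 and 125 for Gpm6a. The second Gpm6a window and those of Dpt, Pi16 and Cd34 held none. Of 27025 genes with RefSeq windows of the same 250 upstream bases, 14.4% held these letters on either strand in any window, as did 2 of 18 other mesothelial genes (11.1%) and 4 of 19 other portal and adventitial fibroblast genes (21.1%). The letters were chosen after the windows had been read, and a match is a description of sequence, not a site. Further motifs were searched on both strands. The SP1 letters GGGCGG were found in none of the 6 genes with a window, against 35.4% of all genes with one. The GATA letters AGATAA were found in none, against 11.4%. The TATA box letters TATAAA were found in the second Gpm6a window, so in 1 of the 6 genes against 14.3%, and overlapped no other match.

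Thy1, which encodes the GPI-anchored surface protein CD90 of fibroblasts, had the widest difference of the 8 genes in longer culture. It read 166.9 to 179.3 in hepatocytes, 170.3 to 190.9 in Kupffer cells and 137.7 to 145.2 in LSEC. It read 243.6 and 202.2 in 1-day HSC, 2026 at day 7 and 2352 at day 14. All 4 HSC arrays exceeded all 9 fresh arrays, and LSEC lay below every other group. The rise from day 1 was 2.89 on the log2 scale (SE 0.0986, adjusted p = 8.9e-10), and the ratio of mean intensities was 9.82. T and NK cells also express Thy1, and their part in the Thy1 values was not tested. Their 9 measured markers summed to 751.7 to 786.9 at day 1, 764.5 at day 7 and 781.7 at day 14, each marker below the median of all values on all 4 HSC arrays. The T cell receptor gene Cd3e read 189.8 and 201.6 in 1-day HSC, 211.2 at day 7, 221.3 at day 14 and 202.2 to 300.1 in fresh cells.

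Dpt encodes dermatopontin, a small matrix protein that binds decorin and collagen. It read 727.9 and 1058 in 1-day HSC, 149.7 at day 7 and 51.9 at day 14. Fresh cells read 43.23 to 63.52 in hepatocytes, 38.53 to 49.99 in Kupffer cells and 43.55 to 51.02 in LSEC. The day 14 value lay within the hepatocyte range, while day 7 lay above all fresh arrays. In a separate limma fit of the 4 populations (11 arrays, 12081 genes, same threshold), 1-day HSC exceeded each fresh population. The log2 difference was -2.82 for hepatocytes minus 1-day HSC (SE 0.126, adjusted p = 1.6e-09), -2.94 for Kupffer cells (adjusted p = 8.8e-10) and -2.89 for LSEC (adjusted p = 3.9e-09). In longer culture Dpt fell by 2.44 (SE 0.207, adjusted p = 2.1e-06). Without either day 1 array Dpt had only 1 array above the median and was not tested. The day 1 arrays also read the hepatocyte and endothelial markers described above. The part of such cells in their Dpt values was not tested.

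Pi16, a peptidase inhibitor family gene of adventitial fibroblasts, read 203 and 211.9 in 1-day HSC, 125.3 at day 7 and 119.9 at day 14. It read 138 to 148.7 in hepatocytes, 125.9 to 144.1 in Kupffer cells and 114.8 to 125.5 in LSEC, so the day 1 HSC arrays lay above all 11 others. With no filter the log2 difference of LSEC minus 1-day HSC was -0.52 (adjusted p = 4.5e-05), and that of long culture minus day 1 was -0.50 (adjusted p = 6.9e-05). Both were below the minimum of 1.

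Cd34 encodes a sialomucin of endothelium and of adventitial fibroblasts. It read 1648, 1458 and 877.2 in LSEC, 255.1 and 263.9 in 1-day HSC, 183.5 at day 7, 263.4 at day 14, 132.6 to 157.5 in Kupffer cells and 105.5 to 123.9 in hepatocytes. LSEC lay above every other array, the HSC arrays came next, with the day 14 value within the day 1 range, and Kupffer cells lay above hepatocytes. LSEC exceeded 1-day HSC by 2.0 (SE 0.187, adjusted p = 3.4e-06). Hepatocytes and Kupffer cells were below LSEC, with log2 differences of -2.79 (adjusted p = 1.7e-08) and -2.58 (adjusted p = 3.9e-08). Hepatocytes and Kupffer cells differed from 1-day HSC by -0.79 and -0.58, below the minimum. From day 1 to longer culture the difference was -0.17 (SE 0.214, adjusted p = 0.56). Replicate 3 was the lowest of the LSEC arrays for Cd34, Gpm6a and Stab2. Endothelial cells were not tested as a source of the Cd34 on the day 1 HSC arrays, where sinusoidal endothelial markers were also read.

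Between the 4 populations, Cd34 was the sole marker of the 3 tested that exceeded each of the other populations in LSEC, where 2.35% of all genes did, and Dpt the sole one in 1-day HSC, where 2.59% did. No marker did so in hepatocytes or Kupffer cells, where 6.8% and 6.53% of genes did. The 3 tested markers passed the filter only through LSEC or 1-day HSC arrays, so that absence was set by the filter. In single comparisons, 2 of the 3 tested markers (Cd34 and Gpm6a) were lower in hepatocytes and in Kupffer cells than in LSEC, where 12.5% and 10.3% of genes were. Cd34 alone was higher in LSEC than in 1-day HSC, where 5.24% were. Dpt alone was lower than in 1-day HSC in LSEC, hepatocytes and Kupffer cells, where 5.6%, 12.3% and 12.9% were. Gpm6a had log2 differences of -1.38 for hepatocytes minus LSEC (SE 0.205, adjusted p = 6.4e-05) and -1.34 for Kupffer cells minus LSEC (adjusted p = 9.1e-05). Its difference of LSEC from 1-day HSC was 0.97 (adjusted p = 0.004), just below the minimum. Without LSEC replicate 3 that difference was 1.27 (adjusted p = 1.8e-05). With the median of all values as pseudocount, the differences of hepatocytes and Kupffer cells from LSEC were -0.92 and -0.90 and no longer reached the minimum.

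In longer HSC culture 3 of the 6 tested markers rose (Thy1, Lrrn4 and Upk3b), where 5.52% of all genes did, and 1 fell (Dpt), where 4.27% did. The 14-day array read higher than the 7-day array for Upk3b, Lrrn4 and Gpm6a, by ratios of 2.09, 2.6 and 3.54. With 1 array each, this difference has no replicate check. Lrrn4 and Gpm6a were apart by at least 1 on the log2 scale (1.13 and 1.44), a size that 0.574% of 12368 genes reached in that direction. Upk3b differed by 0.87, Thy1 by 0.21 and Msln by 0.27. In the other direction, where 0.986% of genes reached that size, no marker did, and Dpt differed by -0.79.

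**Figure D2:**
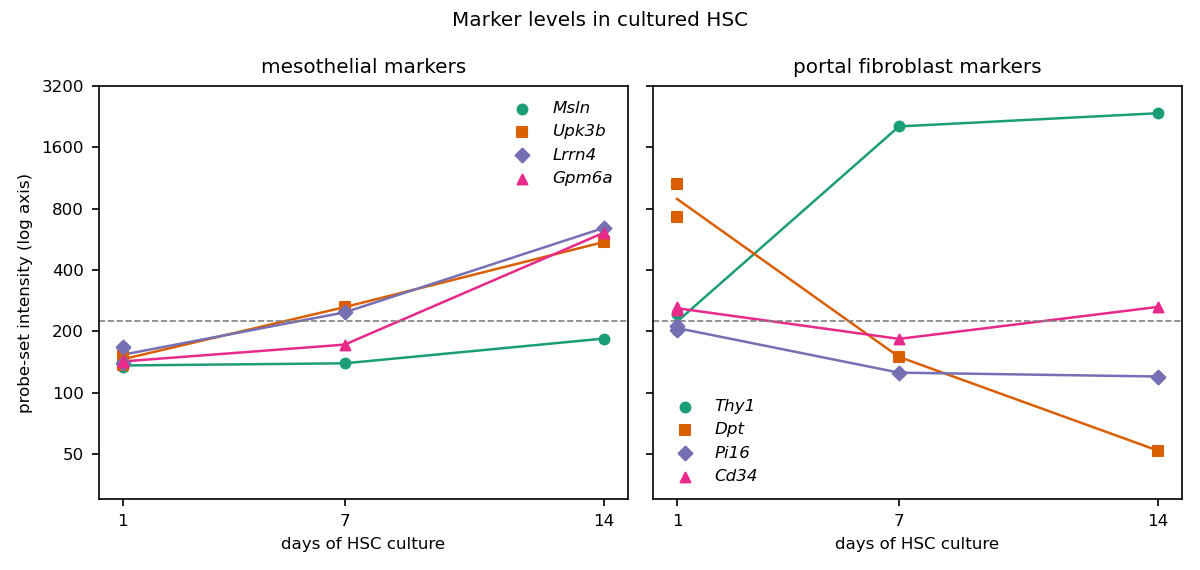
Intensity on a log axis against days of HSC culture for the 4 mesothelial markers (left) and the 4 portal fibroblast markers (right). Points are arrays, lines join the mean of the 2 day 1 arrays to the single arrays at days 7 and 14, and the dashed line marks 224.5. Upk3b, Lrrn4 and Gpm6a reach 548.3 to 642.8 at day 14 while Dpt reads 51.9.

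Set against the fresh cells in the 13-array fit, long-cultured HSC had higher Thy1 throughout. The log2 differences were 3.13 from hepatocytes (SE 0.09, adjusted p = 1.1e-11), 3.09 from Kupffer cells and 3.34 from LSEC. Lrrn4 passed against the same populations at 1.07, 1.24 and 1.18, with adjusted p of 0.0012, 0.00037 and 0.00067. Upk3b passed against LSEC at 1.01 (adjusted p = 0.00041). Its differences from hepatocytes and Kupffer cells, 0.86 and 0.88, were below the minimum. Gpm6a passed against hepatocytes at 1.31 (adjusted p = 0.005) and Kupffer cells at 1.27 (adjusted p = 0.0061), but read 0.59 and 0.55 without the day 14 array, below the minimum. Against LSEC it differed by -0.08 (adjusted p = 0.88). Cd34 was lower than in LSEC by a log2 difference of -2.17 (adjusted p = 1.0e-06).

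In counts, 3 of the 6 tested markers were higher than in each fresh population, beside 13.1% of all genes for hepatocytes, 12.2% for Kupffer cells and 8.67% for LSEC. The 3 were Thy1, Lrrn4 and Gpm6a against hepatocytes and Kupffer cells, and Thy1, Lrrn4 and Upk3b against LSEC. In the other direction 1 marker, Cd34, was lower than in LSEC, beside 6.81% of all genes. None was lower than in hepatocytes or Kupffer cells, beside 9.97% and 11.2%. All hepatocyte and Kupffer cell values of the 6 markers lay below the filter median, which left little room for such a result. These comparisons and the one with day 1 share the 2 long-culture arrays. Upk3b against LSEC read 0.97 without LSEC replicate 2 (adjusted p = 0.0023) and 0.98 after quantile normalization (adjusted p = 0.00097), each just below the minimum.

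**Figure D3:**
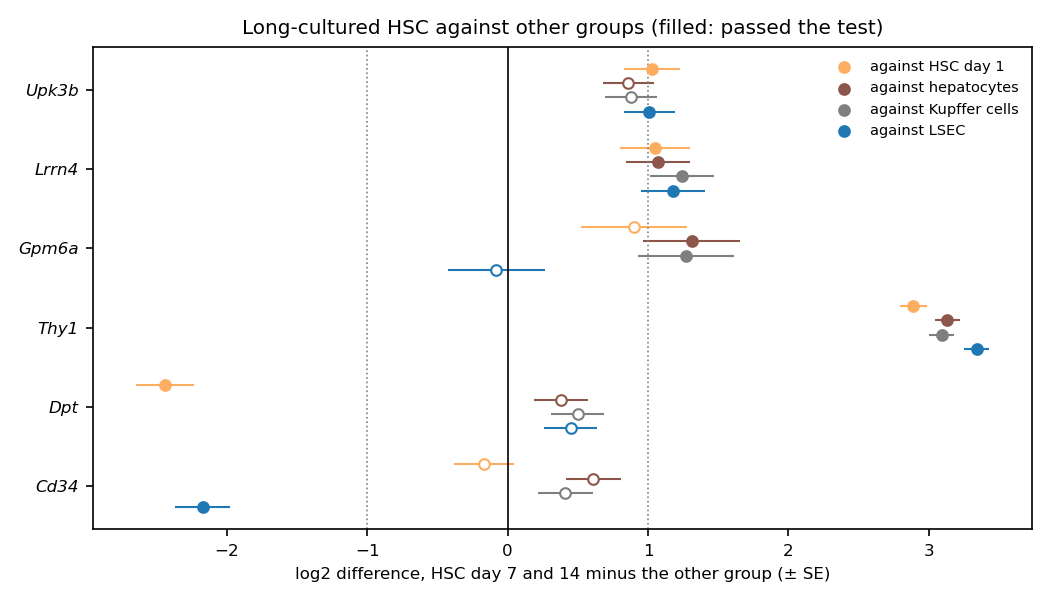
Log2 differences of the merged day 7 and day 14 HSC arrays from 4 other groups for the 6 tested markers, with bars of 1 SE, filled points for differences that passed, and dotted lines at the minimum of 1. Thy1 lies between 2.89 and 3.34 in all 4 comparisons, and Dpt lies at -2.44 against day 1.

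Further genes of the same cell types, from lists written with earlier results of these data known, were read beside the markers. Of 24 other mesothelial genes 23 were on the array and 17 were tested in longer culture. Of these 5 rose and 3 fell, beside 5.52% and 4.27% of all genes, with a median log2 difference of 0.64 against -0.04 over all genes tested. Aldh1a2 and Upk1b passed the filter only through the day 7 and day 14 arrays. Their calls, and the count and median that include them, are therefore descriptions and not support. The retinoic acid synthesis gene Aldh1a2 rose by 1.60, the glypican gene Gpc3 by 1.67, the matrix gene Efemp1 by 1.51 and the uroplakin partner gene Upk1b by 1.46 (adjusted p = 0.0017), followed by Nkain4 at 1.2. Podxl fell by 2.32 and the simple keratin genes Krt8 and Krt18 by 1.5 and 1.09. In fresh cells Podxl read 1820 to 2364 in LSEC, Krt8 14805 to 16558 and Krt18 14711 to 14968 in hepatocytes. The summed markers of those cells were also lower at days 7 and 14 than at day 1, and their part in these falls was not tested.

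The mesothelial transcription factor gene Wt1 read 321.3 and 282.5 at day 1, 501.9 at day 7 and 619.9 at day 14. Its difference of 0.74 (adjusted p = 0.0011) was below the minimum. On single arrays, Upk1b read 306 at day 7 and 899 at day 14, and Nkain4 344.4 and 795.5. Bnc1 and Tbx18 were not tested, and read 231.2 and 256.9 at day 14 after 92.44 and 126.1 at day 7. Muc16, the binding partner of mesothelin, read 28.96 to 53.16 on the HSC arrays. On the same single arrays the stellate cell markers summed to 30404 at day 7 and 22227 at day 14. Reln read 2270 and 276.6 and Bmp5 2019 and 294.2. Kupffer cell markers summed to 6475 and 11529, after 8710 to 11339 on the 1-day HSC arrays. The part of these shifts in the mesothelial values was not tested.

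Of 30 other portal and adventitial fibroblast genes 28 were on the array and 23 were tested. In longer culture 11 rose and 2 fell, beside the same 5.52% and 4.27% of all genes, with a median log2 difference of 1.10. Ogn, Slit2, Lum and Fgf7 passed the filter only through the day 7 and day 14 arrays. Their calls, and the count and median that include them, are therefore descriptions and not support. The proteoglycan gene Ogn rose by 3.73 (SE 0.0889, adjusted p = 3.7e-11), from 169.5 and 151.6 at day 1 to 2949 at day 7 and 3379 at day 14. Thbs2 rose by 3.20, the guidance cue gene Slit2 by 2.91 and the elastic fibre gene Fbln2 by 2.77. Ltbp4 and the alarmin gene Il33 fell by 1.90 and 1.25. The actin-severing gene Gsn, at 0.99, was below the minimum (adjusted p = 3e-05). The matrix Gla gene Mgp, at 1.2, did not pass (adjusted p = 0.056), reading 291.8 at day 7 and 1753 at day 14. Of the stellate cell markers 4 of 19 fell and none rose, and of the myofibroblast genes 7 of 13 rose and none fell, beside the same shares of all genes. Cnn1, a myofibroblast gene of that list, also passed the filter only through the day 7 and day 14 arrays.

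At day 1, 4 of 19 tested portal and adventitial fibroblast genes were higher in HSC than in each fresh population, beside 2.59% of all genes. They were Fbln2, Ltbp4, Mfap5 and Pdgfra. Mfap5 and Pdgfra passed the filter of that fit only through the 1-day HSC arrays. Their calls, and the count that includes them, are therefore descriptions and not support. Pdgfra, a receptor for platelet-derived growth factors that HSC also carry, averaged 3270 ± 568 (SD, n = 2) in 1-day HSC and at most 154.6 ± 33.8 (SD, n = 3) in a fresh population. Of 13 tested mesothelial genes Efemp1 and Pdpn were higher in 1-day HSC, while Cdh1, Krt18, Krt8 and Slpi were higher in hepatocytes, beside 6.8% of all genes. Efemp1 passed the same filter only through the 1-day HSC arrays and Cdh1 only through the hepatocyte arrays, so these counts are descriptions too.

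**Figure D4:**
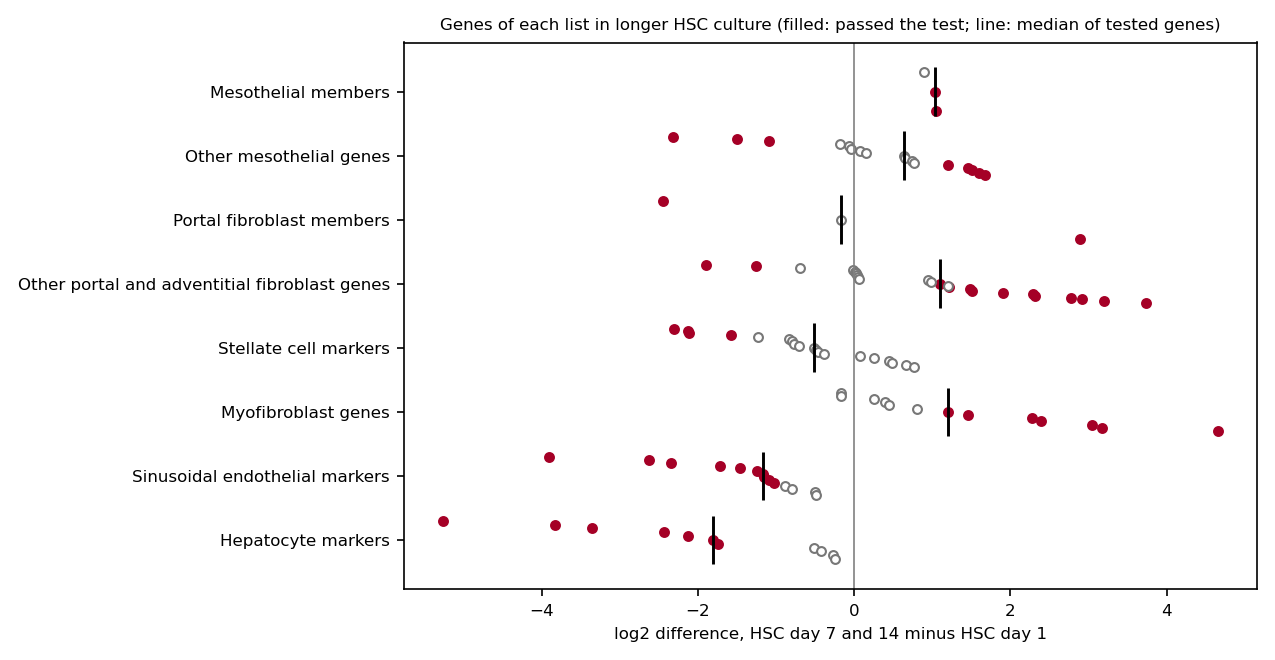
Log2 differences of day 7 and 14 HSC minus day 1 HSC for tested genes of 8 lists, with filled points for genes that passed and a black line at each list's median. The line lies at 1.10 for the other portal and adventitial fibroblast genes, 0.64 for the other mesothelial genes and -1.81 for the hepatocyte markers.

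The genes whose log2 values followed each marker most closely over the 13 arrays, among 12368 genes, were ranked by Pearson's r as a description, since arrays of a group share their cells. For Upk3b they were Nkain4 (r = 0.972), Slc6a17 (0.971) and Srpx (0.969), and for Lrrn4 they were Slc6a17 (0.978), Upk1b (0.976) and Fxyd6 (0.967). Srpx read 463.8 at day 7 and 1470 at day 14, and Fxyd6 672.3 and 1860. Thy1 was followed by Fndc1 (0.996), Brinp1 (0.995) and the smooth muscle calponin gene Cnn1 (0.995). Cnn1 read 157.7 and 160.3 at day 1, 5888 at day 7 and 6146 at day 14.

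Dpt was followed by the hedgehog inhibitor gene Hhip (0.994), the pericyte gene Rgs5 (0.990) and Kcnip3 (0.990). Hhip read 590.8 and 880.1 at day 1, 151.7 at day 7 and 62.2 at day 14. Rgs5 read 1101 and 1144 at day 1, 286.9 at day 7 and 127.7 at day 14. Gpm6a had weaker neighbours, Btbd3 (0.906), Vps35 (0.900) and the caveolin gene Cav1 (0.899). Cd34 was followed by the protocadherin genes Pcdhb14 (0.993), Pcdhb15 (0.991) and Pcdhb18 (0.989), whose sequences are near copies of one another, so their probe sets may not be independent.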

How the data were processed

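Probe-set intensities on a linear scale were used as the authors deposited them, in 1 table of 13 arrays whose medians lay between 216.5 and 232.9. Affymetrix Expression Console and MAS5 version 5.0 are named in the submitters' processing notes, without role or order. The sources used here do not give the background correction, the normalization or the genome build, and no detection calls were at hand.

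Probe sets with 1 gene symbol (21181) were used, and the one with the highest mean stood for a gene. Symbols were updated by Entrez identifier through RefSeq. Intensities entered the fits as log2(intensity + 83), with the pooled 20th percentile (83) as pseudocount, which understates changes of dim genes. Genes above the pooled median of 224.5 on at least 2 arrays were fitted with limma 3.58.1 in R 4.3.3: 11 arrays of 4 populations (7 residual degrees of freedom), and 13 arrays with the day 7 and day 14 HSC arrays merged as replicates (8). P-values were two-sided and Benjamini-Hochberg adjusted over all genes of a comparison. They measure the spread between arrays titled biological replicates, and the 7-day and 14-day arrays are not so titled. In the fit of 13 arrays the difference between the 7-day and 14-day arrays also enters that spread. The fits were tested on simulated data.

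All 8 markers are named, with up to 4 passing and 2 other genes of each list by size of difference, 3 correlated genes per marker, and check genes. Bnc1, Tbx18, Muc16, Bmp5, Aspn, Dpp4, Efhd1 and Il33 lie outside this rule and were named after their values were seen. The markers and lists were chosen with earlier results of these data known. Alternatives covered pseudocount, filter, normalization, probe-set choice, spread, arrays left out, merging of times and a replicate block.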

Additional observations from a re-analysis of the deposited data

How the results depend on the processing

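The counts of markers that passed moved with the choice of pseudocount, filter and arrays. For LSEC the count of markers above each other population was 1, and 2 with a pseudocount of 1, with arrays scaled to the same median and with a replicate block, Gpm6a being the added gene. No pairing by the replicate numbers of the titles was seen. The correlation of deviations from group means lay between -0.11 and 0.11 among 15 same-numbered pairs. Among differently numbered pairs it lay between -0.12 and 0.13. With 2 or 3 arrays in a group, this check cannot exclude that same-numbered arrays were paired. In longer culture the count of rises was 3, and 1 with the pooled median as pseudocount, with the pooled 75th percentile as filter and with the day 7 array alone. Against each fresh population the count of 3 was likewise 1 under these settings, and 5 against Kupffer cells with a pseudocount of 1. Upk3b, Lrrn4 and Gpm6a read at most 548.3, 642.8 and 608.6, below the pooled 75th percentile of 689.1. They could not be tested with that filter, which fixes its drops. With arrays left out in turn, the counts ranged from 1 to 2 for LSEC, 0 to 1 for 1-day HSC, 1 to 3 for rises and 0 to 1 for falls in longer culture, and 1 to 3 against each fresh population. The count of rises was 1 without HSC day 1 replicate 1 and without the day 14 array, and each count against fresh cells was 1 without the day 14 array, as was that against LSEC without the day 7 array. Without the day 7 or the day 14 array Upk3b and Lrrn4 had 1 array above the filter and could not be tested, which fixes their part in those drops. Gpm6a was still tested without the day 14 array, and no longer passed against hepatocytes and Kupffer cells. The low ends for 1-day HSC and for falls arose because Dpt then had 1 array above the filter. Of 960 repeats of the differences of single markers, 922 kept their call, 26 no longer passed, 12 newly passed and 0 reversed. Settings under which a marker failed the filter are not among these repeats. A change of sign without a pass on either side was counted as a kept call.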

Other observations

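A few genes of the lists, picked after their values were seen, differed on single HSC arrays from the other HSC arrays. Krt19, a keratin of mesothelium and bile ducts, read 559.5 on the day 7 HSC array, 172.2 at day 14 and 102.6 to 182.9 on the other 11 arrays. Dpp4, a surface peptidase of adventitial fibroblasts, read 135.1 and 145.5 in 1-day HSC, 810.7 at day 7 and 214.1 at day 14, 1169 to 1421 in hepatocytes, 482.5 to 951.6 in LSEC and 149.7 to 206.5 in Kupffer cells, so its day 7 value lay within the LSEC range. Efhd1 read 638.6 and 127.3 on the 2 arrays of 1-day HSC, and 108.5 to 130.2 in fresh cells. Aspn, a small proteoglycan gene, read 138.5 at day 7 and 733 at day 14. Each of these differences rests on 1 array and was not tested on its own.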
